A study of Mus musculus with 6 samples.

Results

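Complement is a cascade of soluble and membrane proteins that tags and lyses targets, and the genes described here encode 5 of its activating components and 4 of its inhibitors. They were taken by symbol as 9 of 54532 genes in a table of RNA sequencing of cultured primary BMVECs, endothelial cells of small mouse brain vessels. The rule used no measured value, but the genes were chosen with earlier results of these data known. The activating components are C1ra, C1s1, C4b, Cfb and C3, and the inhibitors are Serping1, Cd55, Cd46 and Cd59a. The cells came from wild-type (WT) C57BL/6J mice, as vessel fragments grown to confluence after puromycin selection. The untreated group held 3 libraries, and the IL-36β group 3 libraries of cells given processed DEVD mIL-36β, a mouse cytokine of the IL-1 family, at 100 ng/ml for 24 h. The labels give no age, sex, vehicle or collection time for the untreated cells, so time in culture and IL-36β cannot be told apart. Whether the libraries in a group are from different animals or dishes is not stated, and the p-values cover only the spread among these libraries. Values of 3 libraries are given in the order of replicates 1 to 3.

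The classical pathway starts when the C1 complex, in which the proteases C1r and C1s are bound to C1q, cleaves C4 and C2. The alternative pathway needs factor B, the product of Cfb. The pathways meet at C3, whose cleavage coats a surface with C3b and leads on to the membrane attack complex. Host cells limit this with C1 inhibitor in the fluid phase and with membrane proteins that dissolve the C3-cleaving enzymes or block the attack complex. Most plasma complement is made in the liver, and brain vessels and glia are known as local sources.

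Each library held 15180389 to 19544689 reads assigned to genes. Of 12 endothelial markers all had a mean FPKM (fragments per kilobase of transcript, scaled for sequencing depth) of at least 1, and their summed level was 2479 to 2869 FPKM in untreated and 2585 to 3239 FPKM in IL-36β libraries. Markers of microglia and macrophages summed to 0.142 to 0.281 FPKM without and 0.242 to 0.378 FPKM with IL-36β, with Tyrobp and Trem2 at 0 reads among 10 genes. Smooth muscle and pericyte markers, 11 genes led by Acta2, summed to 401 to 1361 FPKM in untreated and 358 to 809 FPKM in IL-36β libraries. By the letters in their names, libraries A and B (untreated 1 and 2, IL-36β 1) stood apart from D and E (untreated 3, IL-36β 2 and 3). Results inside each such set, and from fits with a term for set, are therefore added where they matter. Inside each set 1 group is a single library, IL-36β replicate 1 in A and B and untreated replicate 3 in D and E. The sets were recognised in these same libraries, so their p-values may be too small.

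Setting IL-36β libraries against untreated ones asked how complement transcripts of these cells differ after exposure to the cytokine. C3 was the member with the clearest difference: its mean level was 3.74 times as high with IL-36β, and it was higher in every IL-36β library than in any untreated one. No inhibitor was higher in every IL-36β library than in any untreated one. Cd59a, the most abundant member, had means of 25.2 and 22.0 FPKM without and with IL-36β. Cd55 and Serping1 overlapped between the groups, and Cd46 stayed below 0.1 FPKM. Of the other activating components, C1ra overlapped between the groups, Cfb and C1s1 had at most 7 reads in any library, and C4b had none.

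The main test was limma on log2(FPKM + 0.5), fitted to genes with at least 0.5 FPKM in at least 3 libraries, with a Benjamini-Hochberg adjusted p under 0.05 as threshold. Of the 9 members 4 passed this filter on level, C3, C1ra, Cd55 and Cd59a. None of these 4 passed the threshold, which 0.182% of the 12618 genes tested passed (23 genes). At an unadjusted p under 0.05 the 4 gave 1, C3, and all genes tested gave 10.4%. On reads recovered from the FPKM, edgeR with the same filter called none of the 4, and DESeq2 called C3, where it called 2.06% of genes.

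**Figure D1:**
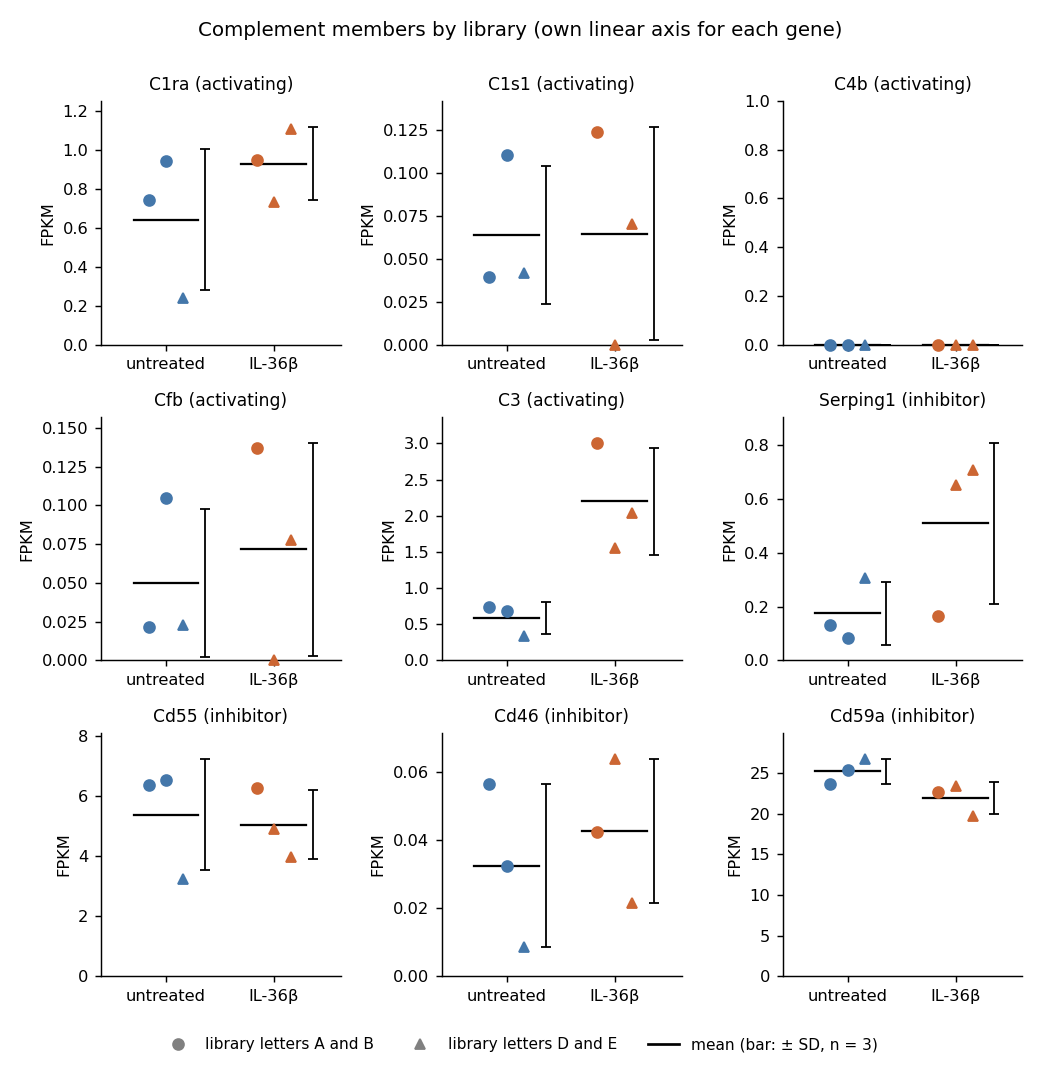
FPKM of the 9 members in each library, untreated (blue) against IL-36β (orange), on a linear axis of its own for each gene; circles are libraries lettered A and B, triangles D and E, black lines the means and bars ± SD (n = 3). C3 lay between 0.341 and 0.742 FPKM in untreated and between 1.55 and 3.01 FPKM in IL-36β libraries, and C4b was at 0 in all 6.

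C3 encodes the protein on which all complement pathways converge (ENSMUSG00000024164, chr17:57203970-57228136, minus strand, GRCm38). It measured 0.742, 0.681 and 0.341 FPKM without and 3.01, 1.55 and 2.04 FPKM with IL-36β. The groups did not overlap, which held for 16.2% of genes tested. These values rest on 62, 71 and 27 reads without and 240, 131 and 191 reads with IL-36β.

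The mean of C3 was 0.588 ± 0.216 FPKM without and 2.20 ± 0.742 FPKM with IL-36β (SD, n = 3 per group). On log2 values with 0.5 FPKM added, steps that shrink the difference of a low gene, C3 differed by 1.30 with an SE of 0.25, a fold of 2.46 (limma, 95% interval 1.65 to 3.66, adjusted p = 0.131). Scaled for depth, the reads of the 2 groups gave a ratio of 3.63, with an exact 95% interval of 3.04 to 4.36 that covers counting error only.

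With the library set as a term, C3 rose 2.80-fold (95% confidence interval 2.17 to 3.62; limma adjusted p = 0.0147), in a fit that called 0.808% of genes. This limma call was lost without untreated replicate 1 or 2 (adjusted p of 0.0650 and 0.0590), where 0.254 and 0.238% of genes were called. It held without IL-36β replicate 2 or 3 (0.372 and 0.943% of genes called). The call was lost too without untreated replicate 3 or without IL-36β replicate 1. These last fits left a set with a single group. Their log2 differences, 1.53 and 1.44, therefore came from the other set alone, with 1 library on one side. The FPKM ratio was 4.22 in libraries A and B and 5.26 in D and E. Each has 1 library on one side, IL-36β replicate 1 and untreated replicate 3, the latter the lowest for C3. DESeq2 gave a log2 difference of 1.89 with an SE of 0.34 (adjusted p = 7.04e-06), and edgeR with the same genes gave 1.89 (adjusted p = 0.0629). edgeR over the 17288 genes with at least 10 reads in all called C3 higher (adjusted p = 0.0397), where it called 0.370% of genes. With the set as a term in that edgeR fit, where 1.71% of genes were called, C3 passed with all 6 libraries (adjusted p = 1.24e-04) and with each library left out.

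In these bulk libraries a change in the number of C3-expressing cells and a change in C3 RNA per cell cannot be told apart. The summed microglial and macrophage markers stayed below 0.4 FPKM in each library. Those of astrocytes, 7 genes, were 0.452 to 1.59 FPKM in untreated and 0.560 to 1.84 FPKM in IL-36β libraries. Most of the astrocyte sum was Aldh1l1, at 0.432 to 1.39 FPKM in untreated and 0.471 to 1.63 FPKM in IL-36β libraries, while Aqp4 and Slc1a3 had 0 reads. Fibroblast markers summed to 0.739 to 1.58 FPKM in untreated and 0.929 to 3.64 FPKM in IL-36β libraries. Those of smooth muscle and pericytes were 401 to 1361 and 358 to 809 FPKM. Each of these sums overlapped between the groups, and the part of such cells in the C3 values was not tested.

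The 250 bases before the start of C3 are shown since C3 carries the main difference, with those of Cd59a and Cd55, the most abundant inhibitors, for comparison (RefSeq, GRCm38.p6, 5′ to 3′ on the gene's strand). Capitals mark matches to C/EBP (TTNNGNAA), GAS (TTCNNNGAA), or the ISRE and NF-kB consensus motifs, searched on both strands, where a match on both strands at one place counts once and the C/EBP and GAS patterns can overlap.
C3, chr17:57228137-57228386, minus strand: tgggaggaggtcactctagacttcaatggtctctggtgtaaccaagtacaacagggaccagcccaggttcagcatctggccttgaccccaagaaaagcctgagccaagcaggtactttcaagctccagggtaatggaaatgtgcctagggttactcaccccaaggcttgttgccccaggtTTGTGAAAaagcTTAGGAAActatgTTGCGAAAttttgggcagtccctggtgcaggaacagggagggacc
Cd59a, chr2:104095551-104095800, plus strand: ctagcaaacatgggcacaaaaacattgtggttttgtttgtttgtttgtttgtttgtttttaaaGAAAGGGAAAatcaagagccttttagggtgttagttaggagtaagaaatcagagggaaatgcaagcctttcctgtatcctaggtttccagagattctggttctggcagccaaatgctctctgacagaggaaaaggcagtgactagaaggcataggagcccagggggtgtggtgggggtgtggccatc
Cd55, chr1:130462745-130462994, minus strand: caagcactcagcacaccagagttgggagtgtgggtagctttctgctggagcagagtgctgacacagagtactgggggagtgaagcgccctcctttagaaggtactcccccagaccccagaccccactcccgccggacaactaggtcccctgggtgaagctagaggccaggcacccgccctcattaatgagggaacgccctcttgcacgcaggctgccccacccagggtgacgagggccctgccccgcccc
The C3 window held 3 C/EBP matches, TTGTGAAA, TTAGGAAA and TTGCGAAA, between 70 and 38 bases before the start. At least 1 such match was present in 36.9% of 32841 promoter windows of this length, and 3 or more, a cut set by the count in C3, in 2.62%. C/EBP matches were not particular to C3 among the members. The windows of C1ra (TTCCCCAA and TTTCAAAA) and C1s1 (TTAGGCAA and TTAGGGAA), not shown, also held them. The RefSeq window of C1ra, chr6:124512371-124512620, runs past the gene start in the FPKM annotation, 124512405. Both C1ra matches therefore lie inside the gene as placed below. The Cd59a window held 1 ISRE match, as did 2.98% of windows, and the Cd55 window held none of the 4 patterns. No NF-kB consensus match, found in 7.25% of windows, and no GAS match, found in 7.02%, lay in the 3 windows shown. A match of letters is not evidence of binding, and its absence concerns this window only.

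C1ra encodes C1r, the protease that activates C1s (chr6:124512405-124523443, plus strand). It measured 0.744, 0.944 and 0.240 FPKM without and 0.951, 0.735 and 1.11 FPKM with IL-36β. The groups overlapped, and untreated replicate 3 was the only library below 0.7 FPKM. The means were 0.643 ± 0.363 and 0.931 ± 0.187 FPKM, and the fitted fold was 1.29 (limma, 95% interval 0.83 to 2.01, adjusted p = 0.653). Its FPKM ratio was 1.13 in libraries A and B but 3.84 in D and E, where untreated replicate 3 was the only untreated library. Of the 50-base windows of the C1ra transcript 48.0% also occur in C1rb, its tandem copy, which had 1 read in all 6 libraries, so reads of these genes may not have been told apart.

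C1s1 encodes C1s, which cleaves C4 and C2 (chr6:124530345-124542359, minus strand). It had 2, 7 and 2 reads without and 6, 0 and 4 reads with IL-36β. The ratio of these sums, 11 and 10 reads, was 0.940 after scaling for depth, with an exact 95% interval for counting error of 0.358 to 2.44. A difference within that interval was not detectable at this depth. Its copy C1s2, which shares 21.9% of the 50-base windows of C1s1, had no reads without and 2, 2 and 1 reads with IL-36β. The gene Gm16567, antisense to C1s1, was listed at 0 in all 6 libraries.

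C4b, which encodes the C4 protein of the classical pathway (chr17:34728380-34743882, minus strand), was listed at 0 in all 6 libraries. At its length 3 reads, the limit that a count of 0 allows, correspond to 0.0260 to 0.0343 FPKM per library. Its neighbour C4a, with 34.6% of the 50-base windows of C4b in common, had 7, 6 and 1 reads without and 3, 6 and 6 reads with IL-36β. Most C4b windows are therefore unique among transcripts and also gave no read.

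Cfb encodes factor B, the protease of the alternative pathway (chr17:34856374-34862518, minus strand). It had 1, 6 and 1 reads without and 6, 0 and 4 reads with IL-36β, a ratio of 1.29 (exact 95% interval for counting error 0.460 to 3.77). This low count has a second limit. Of the 50-base windows of Cfb 73.0% also belong to Gm20547, a gene model that spans Cfb on the same strand and had 0 reads in all 6 libraries. Reads in the shared part may have been assigned to neither gene, so the level of Cfb may be understated; that was not tested.

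Serping1 encodes C1 inhibitor, which inactivates C1r and C1s (chr2:84765387-84775444, minus strand). It measured 0.132, 0.0849 and 0.308 FPKM without and 0.166, 0.654 and 0.709 FPKM with IL-36β, on 5, 4, 11, 6, 25 and 30 reads. The groups overlapped, because IL-36β replicate 1 was below untreated replicate 3. The summed reads, 20 and 61, gave a ratio of 3.16 (exact 95% interval for counting error 1.88 to 5.52).

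Serping1 lay under the filter on level and was not tested in limma. edgeR and DESeq2 over genes with at least 10 reads each gave a log2 difference of 1.58 that missed the threshold (adjusted p = 0.472 and 0.421), and that DESeq2 fit called 1.57% of genes. With the library set as a term edgeR gave 0.94 (adjusted p = 0.515), and the FPKM ratio was 1.53 in libraries A and B and 2.22 in D and E. Summed fibroblast markers, 8 genes with Dpt at 0 reads, were 0.739, 0.967 and 1.58 FPKM without and 0.929, 1.92 and 3.64 FPKM with IL-36β. The markers did not move as 1. Col1a1 and Col1a2 were highest in IL-36β replicates 2 and 3, as Serping1 was. Pdgfra was lower with IL-36β (0.154, 0.164 and 0.110 FPKM) than without (0.184, 0.251 and 0.182 FPKM), and Dcn was highest in IL-36β replicate 1 (0.497 FPKM). The part of fibroblast RNA in the Serping1 values was not tested.

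Cd59a encodes the membrane protein that blocks assembly of the attack complex (chr2:104095801-104115354, plus strand). It measured 23.7, 25.4 and 26.7 FPKM without and 22.7, 23.5 and 19.7 FPKM with IL-36β. The groups did not overlap, but untreated replicate 1 and IL-36β replicate 2 were close to each other. The means were 25.2 ± 1.53 and 22.0 ± 1.97 FPKM, a fold of 0.87 (limma, 95% interval 0.74 to 1.02, adjusted p = 0.549). The FPKM ratio was 0.925 in libraries A and B and 0.809 in D and E. Its copy Cd59b had 8, 2, 2, 5, 3 and 2 reads in the same order of libraries and shares 3.87% of the 50-base windows of Cd59a.

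Cd55 encodes decay accelerating factor, which dissolves the C3-cleaving enzymes (chr1:130439027-130462744, minus strand). It measured 6.37, 6.56 and 3.24 FPKM without and 6.27, 4.90 and 3.99 FPKM with IL-36β. The means, 5.39 ± 1.86 and 5.05 ± 1.15 FPKM, differed by less than the spread between replicates. The fold was 0.97 (limma, 95% interval 0.63 to 1.49, adjusted p = 0.964), an interval wide on either side of 1. The 3 libraries lettered D and E were the 3 lowest, and with IL-36β as a covariate the D and E libraries held 1.60-fold less Cd55 (limma adjusted p = 0.0773). With the set as a term the IL-36β fold turned to 1.13 (0.90 to 1.42; adjusted p = 0.609). The summed smooth muscle and pericyte markers were highest, 1361 FPKM, in untreated replicate 3, the library with the lowest Cd55, C1ra and C3. Acta2 alone gave 1323 FPKM of that sum. Other genes of the list were mixed: Abcc9 and Anpep were highest in that library, and Notch3 (0.922 FPKM) and Des (1.21 FPKM) lowest. The part of such cells was not tested. Cd55b, the tandem copy, was listed at 0 reads in all 6 libraries.

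Cd46 encodes a cofactor for the cleavage of C3b that in mice is known mainly from testis (chr1:195036826-195092249, minus strand). It had 7, 5 and 1 reads without and 5, 8 and 3 reads with IL-36β, with a highest level of 0.0640 FPKM. The ratio of the summed reads, 13 and 16, was 1.27 (exact 95% interval for counting error 0.574 to 2.88). Cd46 overlaps A330023F24Rik on the opposite strand at one end, and how strand was counted is not stated, so reads there may not have been told apart.

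Set in order of FPKM, which is per length and so comparable between genes, the members began with Cd59a and Cd55 in untreated cells. C1ra and C3 came next and overlapped each other over the 3 libraries, as did each pair of neighbours from Serping1 through C1s1 and Cfb to Cd46. With IL-36β C3 followed Cd59a and Cd55 and lay above C1ra with no overlap between them. The 5 activating components summed to 1.55, 1.84 and 0.646 FPKM without and 4.22, 2.28 and 3.30 FPKM with IL-36β. C3 made up 37.0 to 52.9% of that sum in untreated and 61.9 to 71.3% in IL-36β libraries. Without C3 the sum was 0.756 ± 0.429 and 1.07 ± 0.289 FPKM, which overlapped.

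The 4 inhibitors summed to 30.2, 32.0 and 30.3 FPKM without and 29.1, 29.1 and 24.5 FPKM with IL-36β. Cd59a gave 77.8 to 88.2% of this sum over the 6 libraries. Inhibitor transcripts thus exceeded those of activating components in every library, by 17.4 to 46.9 times in untreated and 6.91 to 12.7 times in IL-36β libraries. The highest ratio, 46.9, belonged to untreated replicate 3. These sums describe RNA of chosen genes and carry no test. Reads of Cfb and C1ra in the parts shared with other genes may be missing from the activating sum. The ratios may then be overstated, which was not tested.

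**Figure D2:**
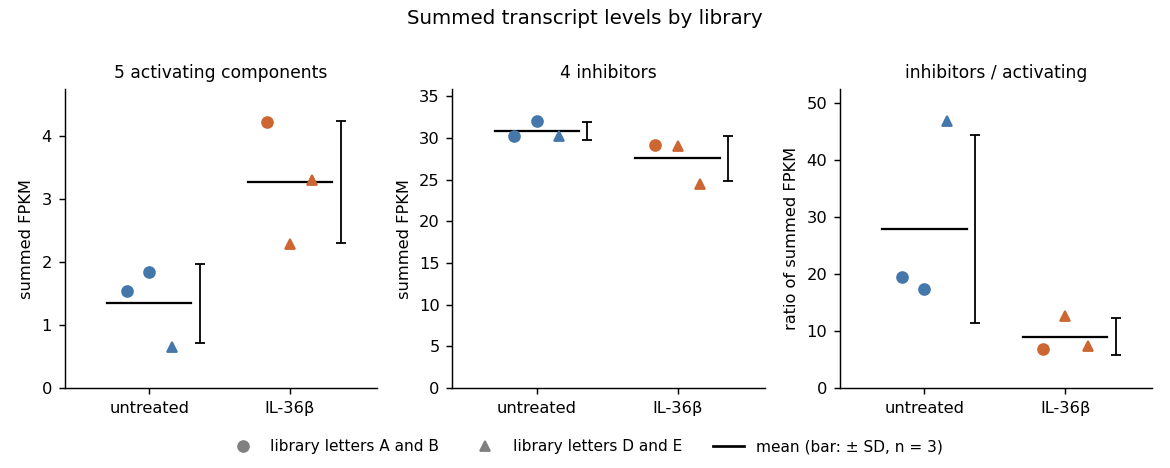
Summed FPKM of the 5 activating components, summed FPKM of the 4 inhibitors, and their ratio, by library (circles, letters A and B; triangles, D and E; line, mean; bar, ± SD, n = 3; axes start at 0). The ratio lay at 6.91 to 12.7 in IL-36β and at 17.4 to 46.9 in untreated libraries.

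A wider list of 51 complement genes placed the members in their pathways. Of these, 36 had at least 1 read, 9 had a mean of at least 1 FPKM, and 10 passed the filter on level. None of the 10 passed the limma threshold, 3 had an unadjusted p under 0.05 (Masp1 and Thbd lower, Cr1l higher; 10.4% of all genes tested), and 3, the same ones, did not overlap between groups (16.2% of all genes tested). The median log2 difference of the 10 was -0.04, beside 0.00227 for all genes tested; 5 were above 0 and 5 below. edgeR with the same genes called Masp1, where it called 0.293% of genes, and DESeq2 called Masp1 and Thbd.

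Masp1, which encodes lectin pathway proteases and a truncated product of the same locus (chr16:23449417-23520815, minus strand), measured 3.26, 4.82 and 3.14 FPKM without and 1.65, 1.74 and 1.27 FPKM with IL-36β. Every IL-36β library was below every untreated one. The means were 3.74 ± 0.937 and 1.55 ± 0.251 FPKM, a log2 difference of -1.03 with an SE of 0.18 (limma adjusted p = 0.117). On the recovered reads Masp1 fell, with log2 differences of -1.28 in DESeq2 (adjusted p = 1.08e-06) and -1.27 in edgeR (adjusted p = 0.0444). The FPKM ratio was 0.408 in libraries A and B and 0.481 in D and E, and limma with the set as a term gave an adjusted p of 0.0952. Colec12, a scavenger receptor with a collectin domain, was the most abundant lectin pathway gene on the list, at 13.7 ± 1.60 and 11.6 ± 0.286 FPKM (limma adjusted p = 0.527).

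Among membrane regulators Cr1l, which encodes Crry, the rodent membrane cofactor for C3b and C4b cleavage (chr1:195097382-195131586, minus strand), measured 11.6, 10.7 and 11.7 FPKM without and 13.0, 13.5 and 13.0 FPKM with IL-36β. Its groups did not overlap, with a fold of 1.16 (95% confidence interval 1.01 to 1.33; limma adjusted p = 0.454). In every library Cr1l lay above Cd55 and below Cd59a. Thbd encodes thrombomodulin, an anticoagulant receptor that also promotes C3b inactivation (chr2:148404466-148408188, minus strand). It measured 43.1, 47.2 and 50.7 FPKM without and 35.1, 37.7 and 35.0 FPKM with IL-36β, again with no overlap. Its fold was 0.77 (0.66 to 0.89; limma adjusted p = 0.228), and in DESeq2 Thbd fell (log2 difference -0.40, adjusted p = 0.0487), a call that was lost over genes with at least 10 reads (DESeq2 adjusted p = 0.0929).

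**Figure D3:**
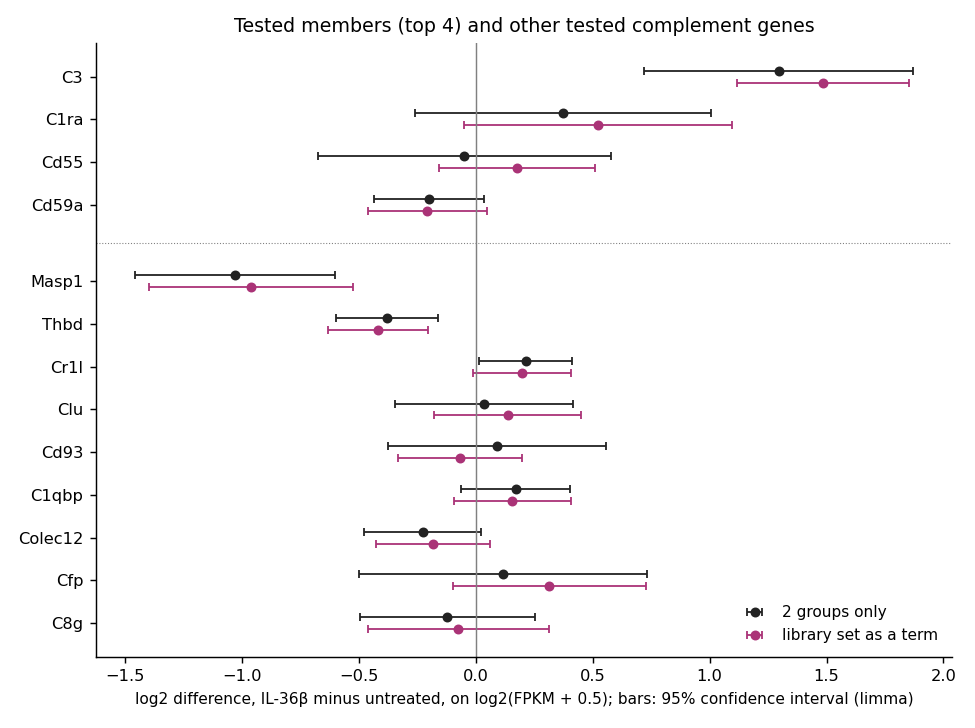
Log2 difference between IL-36β and untreated cells on the log2(FPKM + 0.5) scale for the 4 tested members (above the dotted line) and 9 tested genes of the wider list, with 95% confidence intervals from limma, for the 2 groups alone (black) and with the library set as a term (purple). C3 lies at 1.30 and 1.49 and Masp1 at -1.03 and -0.96; the intervals of Cd59a and Cd55 include 0 in both fits.

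Among soluble regulators Clu, which encodes clusterin, an inhibitor of the attack complex, was 8.59 ± 1.60 and 8.77 ± 1.30 FPKM (limma adjusted p = 0.959).

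The starting and terminal steps were scarce. C1qa, C1qb and C1qc, the subunits of C1q, were listed at 0 reads in all 6 libraries, and of 8 classical pathway genes on the list none passed the filter; C1rl and C2 were the highest at 0.0915 and 0.0540 FPKM over all libraries. In the alternative pathway Cfd, factor D, was at 0 reads, and Cfp, properdin, was 0.550 ± 0.192 and 0.658 ± 0.362 FPKM. Of 7 terminal pathway genes only C8g, which encodes the C8 gamma chain, passed the filter, at 1.37 ± 0.303 and 1.20 ± 0.0530 FPKM, and Hc, the gene of C5, had 5 reads in all.

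Receptors on the list were led by Cd93, an endothelial surface glycoprotein once described as a C1q receptor, at 262 ± 50.7 and 280.2 ± 56.4 FPKM, and C1qbp, at 23.0 ± 2.20 and 25.9 ± 1.29 FPKM; neither passed in limma (adjusted p = 0.891 and 0.589). The receptors of the C3 and C5 fragments were low: C3ar1 had a highest level of 0.483 FPKM, and C5ar1 had 4 reads in all.

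**Figure D4:**
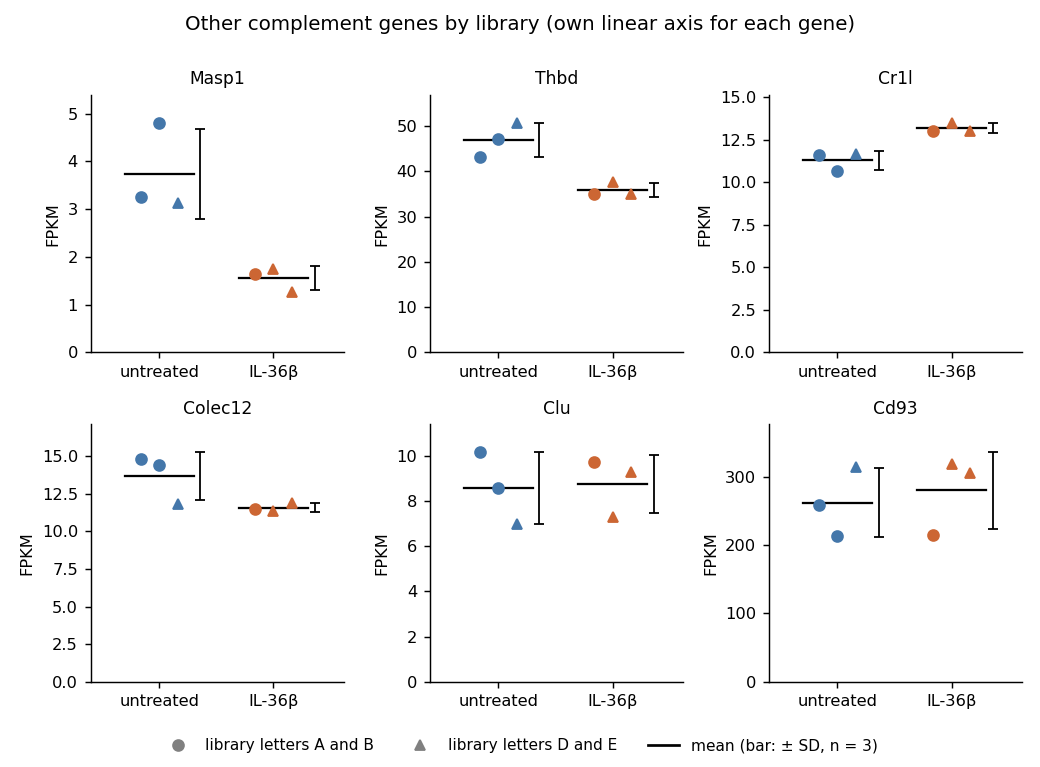
FPKM of 6 genes of the wider complement list in each library (blue, untreated; orange, IL-36β; circles, letters A and B; triangles, D and E; line, mean; bar, ± SD, n = 3; linear axes from 0). Masp1 and Thbd are lower and Cr1l is higher in all 3 IL-36β libraries than in any untreated one, while Colec12, Clu and Cd93 overlap.

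By Pearson correlation of log2(FPKM + 0.5) over the 6 libraries, among 6678 genes with a mean of at least 5 FPKM, the pattern of C3 was most like those of Ppp1r11 (r = 0.994), Tpd52l2 (0.992), Psme1 (0.992), Tnip1 (0.991) and Psme2 (0.991). The 6 points share the difference between groups and that between library sets, so these values are a description only. Tnip1 was 28.7 ± 4.86 and 70.8 ± 11.8 FPKM, and Psme1, which encodes a proteasome activator subunit, was 16.3 ± 1.09 and 23.3 ± 2.44 FPKM (untreated, then IL-36β).

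In the authors' deposited table of 660 genes, C3 was the only 1 of the 9 members, listed as higher with a p of 0.0111 and an adjusted p of 0.999, the lowest adjusted p of that table. That table also has 8 per-library columns that match no sample label. Its p-values may therefore rest on a different set of libraries from the tests above, so the 2 are not like for like. In the authors' deposited table of gene ontology terms, complement activation held 2 of their genes out of 44 in the term (adjusted p = 0.540).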

How the data were processed

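Stranded mRNA libraries were run on an Illumina NextSeq, per the labels. The authors deposited FPKM for 54532 genes, and 660 genes with raw counts, log2 fold changes and p-values. The submitters' processing notes name fastp, HISAT2 2.05, featureCounts 1.50-p3, DESeq2 1.38.3 and GRCm38; no source used here states how strand was counted. FPKM times length gave whole reads in 100% of values within 0.01, equal to the deposited counts in all 660 genes. A further 8 per-library columns match no sample label and were not used.

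Libraries were grouped by title. Limma 3.58.1 (R 4.3.3, trended prior, two-sided, pseudocount 0.5) was fitted to the whole table. Alternatives were DESeq2 1.42.0 and the quasi-likelihood test of edgeR 4.0.16 on recovered reads. Others were different pseudocounts, filters, scalings and blocks, a term for set, and leaving out libraries. The main test and these alternatives were also chosen with earlier results of these data known. Added later, after seeing the data, were the fits over genes with at least 10 reads and limma with the set and no filter. So was leaving out libraries from fits with the set. Tests were checked on simulated data. Shared windows were counted in GENCODE M21 transcripts. RefSeq promoters were found for 6 of 9 members.

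The members and lists were chosen with earlier results of these data known. Named were all members, their copies, and, of the wider list, genes past the threshold, genes with a mean of at least 1 FPKM in a group and no overlap, and the 2 most abundant per role; Cfd, C1qa, C1qb, C1qc, C3ar1 and C5ar1 were added with their values in view. Of the list, 1 tested gene is not reported here.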

Additional observations from a re-analysis of the deposited data

How the results depend on the processing

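Of the 4 tested members none was past the threshold in limma on the 2 groups alone. For these 4 the number was 1, C3, with a replicate block by library letter (0.618% of genes called), with the library set as a term and in DESeq2. Only letters A and D occur in both groups. Untreated replicate 2 (letter B) and IL-36β replicate 3 (letter E) therefore do not enter the difference estimated with the block by letter. The fits over genes with at least 10 reads, edgeR, DESeq2 and edgeR with the set, held 8 members, and the number was again 1, C3. With a library left out in turn, the number of members called was 0 in limma. In fits with the set, without untreated replicate 1 or 2 or IL-36β replicate 2 or 3, it was 0 to 1 in limma. In edgeR with the set it was 1 to 1 for these libraries. The shares of all genes called in these fits with the set are given with C3 above. Without untreated replicate 3 or IL-36β replicate 1 the fits with the set rest on 1 set alone. Without a filter on low values limma called 0 genes in all (1751 at an unadjusted p under 0.05); with the set as a term and no filter C3 missed as well (adjusted p = 0.115). C3 stayed above 0 in each setting, at log2 0.99 to 2.21 over all 6 libraries. For the wider list the number called was 0 in limma, 1 in edgeR, 2 in DESeq2, and 1 in each of the other count fits (edgeR, DESeq2 and edgeR with the set over genes with at least 10 reads).

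Over all genes limma called 23, against 15 in TPM, 13 with a replicate block by title number, 78 with the block by letter, 102 with the set, 37 in edgeR, 260 in DESeq2 and 2 to 8 with a library left out. Signs near 0 turned in some settings, as for Cd55, Clu, Cd93 and Cfp below. Signs also turned for genes under the filter on level, such as C1s1, Cd59b and C1rl, which were all below 0 with no filter and above 0 (0.05, 0.05 and 0.0066) when the set was added as a term. Cd55 was 0.25 with the replicate block by library letter, 0.18 with the set as a term, with or without the filter, 0.20 in edgeR with the set, and -0.35 to 0.11 with a library left out. Clu was -0.048 in TPM, -0.0045 with the block by letter and -0.10 to 0.16 with a library left out. Cd93 was -0.057 after quantile normalization, -0.12 with the block by letter, -0.068 with the set, with or without the filter, -0.062 in edgeR with the set and -0.049 to 0.27 with a library left out. Cfp ranged from -0.13 to 0.24 with a library left out. The cause was not tested.

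The replicate block by title number left 0 members and 0 list genes called (C3 adjusted p = 0.146). Deviations from group means correlated at 0.21, -0.14 and 0.21 between same-numbered libraries, and not every library correlated best with its own number, so the numbers were not taken to pair the samples. Members with under 20 reads per group, C1s1, Cfb and Cd46, are limited by depth, and C4b gave no value beyond its limit.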
